A study of Mus musculus with 12 samples.

Results

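The genes described here are those of cholesterol and fatty acid synthesis, in 3 groups. The sterol route makes cholesterol, SREBP control covers the regulators that set the pace of the routes, and the fatty acid route makes, desaturates and elongates fatty acids. They come from a list of 34 genes, matched by symbol to the probe sets of the array that carry 1 gene symbol. Of these, 33 were found among 18194 such genes, 17 of the sterol route, 6 of SREBP control and 10 of the fatty acid route. Acat2 was not matched. Where a gene had several probe sets, the one brightest on average stands for it, and 32 of the 33 passed the filter on low levels, Scd1 being the exception. RNA of mouse blood cells was hybridised to 12 one-colour Affymetrix arrays in 4 groups of 3. Controls had Stat5a and Stat5b, the genes of a pair of transcription factors that carry cytokine signals, and knockouts lacked both. Within each genotype the array titles carried a minus or a plus sign, and the treatment protocols put the sign down to CMP. What CMP stands for is not said in the labels, nor which blood cells were taken, how the genes were deleted, and of what strain and age the mice were. "Plus" and "minus" therefore mean only the sign in the title. Nothing says that the 3 arrays of a group came from separate animals or cultures, so p-values measure the spread between these samples, which may be technical. Titles come in 3 styles, and arrays that share a style are called a naming set here (A, B or C), with 1 array of each group per set. In sets A and C the letters CMP are in the titles of minus and plus arrays alike, so the labels do not settle that plus arrays were given CMP. The array with the knockout minus title in set B is called a control in its treatment protocol. It was grouped by its title, and its Stat5a and Stat5b signals were in the range of the knockouts.

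Cholesterol is built from acetyl-CoA through mevalonate, isoprenoid units, squalene and lanosterol, and each enzyme of that chain is encoded by its own gene. The SREBP transcription factors switch on these genes and those of fatty acid synthesis. When sterols are plentiful, INSIG proteins hold the SREBP escort SCAP in the endoplasmic reticulum, and when sterols run low SCAP carries SREBP to the Golgi, where it is cut and released to the nucleus. SREBP-2 acts mainly on sterol genes and SREBP-1c mainly on fatty acid genes. Dividing and activated blood cells draw on both routes for membrane.

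Stat5a gave signals of 660 to 1436 in the control arrays and 28.9 to 90.1 in the knockout arrays, and Stat5b gave 1036 to 2177 and 7.28 to 82.8. Signals are MAS5 values, the linear brightness of a probe set scaled so that the trimmed mean of every array is 500, and the array medians ranged from 59.7 to 114. The 4 markers of blood progenitors were all above the level filter, with summed signals of 28200 to 31800 in minus arrays and 14400 to 27000 in plus arrays, and 1 of the 4 was called lower in plus arrays of each genotype. Erythroid markers summed to 4410 to 28700 in minus arrays and 736 to 3250 in plus arrays, and 3 of the 4 measured above the filter were called lower in plus arrays of both genotypes. Mast cell and basophil markers summed to 6260 to 8370 in minus and 1030 to 6450 in plus arrays, with 1 of 4 called lower in controls and 2 in knockouts. Of the monocyte and macrophage markers, 1 of 4 was called higher in each genotype. Neutrophil markers had 1 of 6 lower in controls and 2 in knockouts. Megakaryocyte markers had 1 of 5 lower in each genotype, and dendritic cell markers 0 of 3 called in controls and 1 higher in knockouts. Of all genes tested, 22.1% were called in controls and 18.8% in knockouts, so single calls in lists this short are not read as results about a cell type. In RNA of bulk cells, fewer cells of a type and less RNA per cell cannot be told apart. Hepatocyte and adipocyte markers, of tissues rich in these routes, had 0 of 3 members each above the filter. The log2 ratio of the 3' to the 5' beta-actin probe set, which rises as RNA is degraded, was higher in the plus array than in its minus partner (same set, same genotype) in 6 of 6 cases, by 0.25 to 1.63. The Gapdh ratio was higher in 5 of 6 cases, with differences from -0.01 to 2.31. The beta-actin ratio lay at 4.30 to 5.78 in set B and at 0.25 to 2.14 in the other sets. The part of these differences in the results below was not tested, apart from fits that held the ratio as a covariate or left out a set.

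The promoters of the genes show what they share in sequence. RefSeq promoter windows, from 250 bases before to 50 bases after each annotated start in GRCm38.p6, were given for 27 of the 34 listed genes (35 windows) and for 32851 windows in all. Both strands were searched, and matches were counted whether or not they overlapped another match. The pentamer CCAAT, bound by NF-Y, a partner of SREBP at many sterol genes, was found in 14 of 15 sterol route genes, 4 of 5 SREBP control genes and 4 of 7 fatty acid genes. It was in 65.7% of the 35 windows and in 37.4% of all windows. At least 2 copies were in 34.3% and 11.7%. The Sp1 motif GGGCGG was in 74.3% against 35.7%. The sterol regulatory element in the strict form TCACNCCAC was in 2.86% against 1.24%, in Hmgcs1 alone of these genes. TTCNNNGAA, the spacing that STAT proteins bind, was in 2.86% against 8.3%, in Ebp alone. The 140 bases before the start are printed for 6 genes, 5' to 3' on the gene's own strand, with TCACNCCAC and CCAAT (or ATTGG on the other strand) in capitals. Hmgcs1, Idi1, Cyp51 and Msmo1 are shown because their signals were higher in plus arrays of both genotypes. Nsdhl and Elovl5 are shown because they carry 2 CCAAT each in the printed bases and were called in neither. The 6 were chosen after their values were seen.
Hmgcs1, chr13:119690211-119690350, + strand: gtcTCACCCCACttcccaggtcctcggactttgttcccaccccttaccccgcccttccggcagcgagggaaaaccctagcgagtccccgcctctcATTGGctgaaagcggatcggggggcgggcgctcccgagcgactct
Idi1, chr13:8885466-8885605, + strand: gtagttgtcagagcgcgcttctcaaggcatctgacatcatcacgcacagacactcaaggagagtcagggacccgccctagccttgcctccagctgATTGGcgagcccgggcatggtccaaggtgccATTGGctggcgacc
Cyp51, chr5:4104698-4104837, - strand: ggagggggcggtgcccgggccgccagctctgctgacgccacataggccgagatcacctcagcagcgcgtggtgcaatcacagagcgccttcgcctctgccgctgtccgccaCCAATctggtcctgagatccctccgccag
Msmo1, chr8:64733579-64733718, - strand: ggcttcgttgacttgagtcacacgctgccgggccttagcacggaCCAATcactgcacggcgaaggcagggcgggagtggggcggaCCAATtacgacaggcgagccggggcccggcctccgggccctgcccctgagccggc
Nsdhl, chrX:72918381-72918520, + strand: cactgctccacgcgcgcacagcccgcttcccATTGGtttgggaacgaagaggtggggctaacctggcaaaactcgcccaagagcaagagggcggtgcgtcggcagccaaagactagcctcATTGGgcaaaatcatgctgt
Elovl5, chr9:77917225-77917364, + strand: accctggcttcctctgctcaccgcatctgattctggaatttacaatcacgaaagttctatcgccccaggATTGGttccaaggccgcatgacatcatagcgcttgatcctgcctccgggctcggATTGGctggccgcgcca
Among tested genes with a window, CCAAT was in 10 of 11 that were called higher in plus arrays of the controls and in 12 of 15 that were not. A match is a run of letters in the window and no evidence of binding.

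Plus arrays were compared with minus arrays within the controls first. Of the 32 genes tested, 16 were higher, 1 was lower and 15 did not pass (limma over 10583 genes, naming set as a block, two-sided, Benjamini-Hochberg adjusted p under 0.05). Of all genes tested, 22.1% were called, 10.6% higher and 11.6% lower. The median change of the 32 was 0.74 on the log2(signal + 32) scale, on which all changes are given, and that of all genes was -0.02. The sterol route had 11 higher, 0 lower and 6 not called of 17, with a median of 1.23. SREBP control had 3 higher and 3 not called of 6, with a median of 0.73. The fatty acid route had 2 higher, 1 lower and 6 not called of 9, with a median of -0.10. The 4 largest changes, of Msmo1, Cyp51, Fdft1 and Hmgcs1, were all in the sterol route. Calls fell to 8 when the block was left out, to 11 when set A was, to 8 when set C was, and to 11 when the control minus array of set C was, all of them higher. Over all genes the share called fell alongside, to 4.44%, 9.97%, 5.4% and 12.2%. Without set B, by contrast, Mvk, Insig2, Srebf2 and Fads1 were also called higher and Ebp and Acaca lower, while the Fads2 call was lost. The share of all genes called was then 29%. With the arrays centred on their medians, which shifts the median of all genes to -0.22, 13 were higher and 3 lower.

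In the knockouts, 14 genes were higher in plus arrays, 1 was lower and 17 did not pass, beside 18.8% of all genes called, 9.03% higher and 9.72% lower. The median of the 32 was 0.59, that of all genes -0.06. The sterol route had 8 higher, 1 lower and 8 not called of 17 (median 0.96), SREBP control 4 higher and 2 not called of 6 (median 0.77), and the fatty acid route 2 higher and 7 not called of 9 (median 0.05). The count was 8 without the naming set block, 8 without set A and 7 without set C, where 2.82%, 6.42% and 3.36% of all genes were called. It was 9 when only the 6 knockout arrays were fitted (6.26% of all genes) and 9 when the beta-actin ratio entered as a covariate (6.14%), which in the controls left 14 (14.4%). It was 11 without the array of conflicting labels (9.45%) and 11 with that array taken as a control (9.18%). Without set B no call was lost, Mvd and Fdps were called higher too, and 25% of all genes were called. Altogether 12 genes were called higher in both genotypes, namely 8 of the sterol route (Hmgcs1, Idi1, Fdft1, Sqle, Cyp51, Msmo1, Hsd17b7 and Sc5d), 3 of SREBP control (Insig1, Srebf1 and Stard4) and Scd2. The calls of 7 of these, Hmgcs1, Idi1, Fdft1, Cyp51, Msmo1, Sc5d and Insig1, held in both genotypes under every alternative run. Both genotypes draw on 1 estimate of each gene's spread and on the same naming sets, so these calls are not independent.

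**Figure D1:**
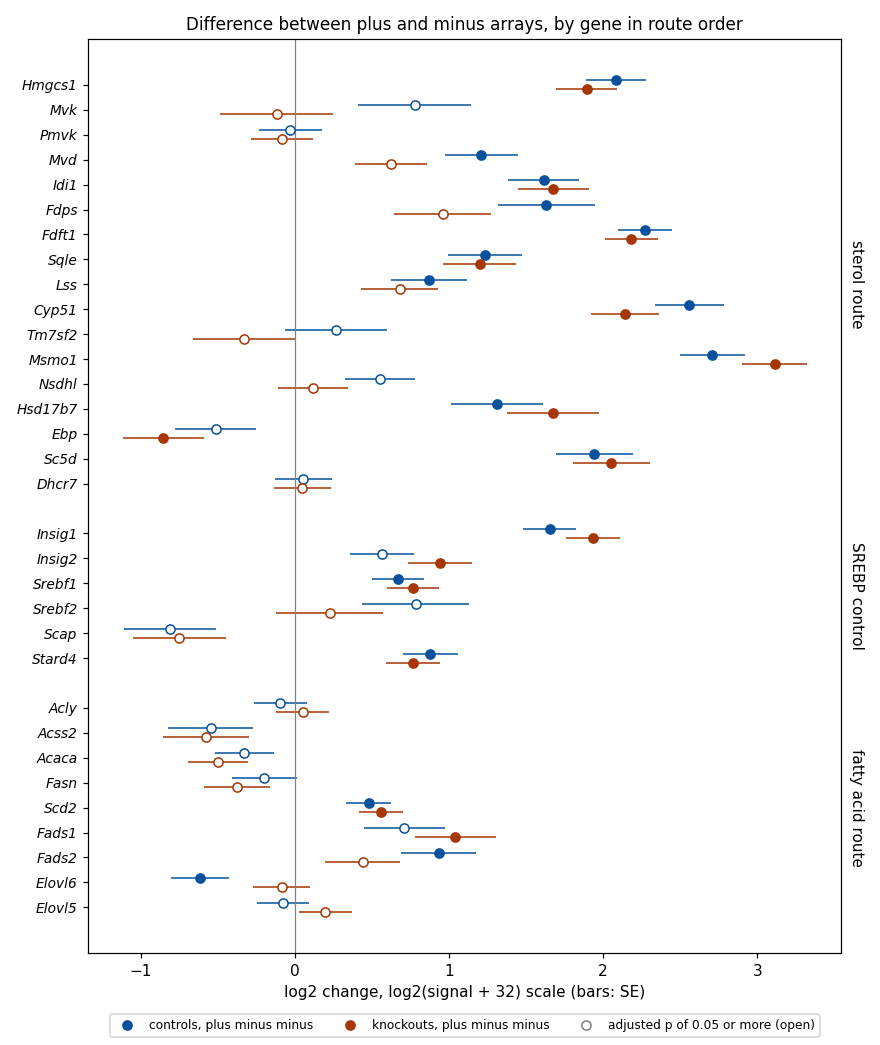
Change from minus to plus arrays for the 32 genes tested, in route order from top to bottom, on the log2(signal + 32) scale (horizontal axis), in controls (blue) and knockouts (red). Points are limma estimates with bars of 1 SE from 3 arrays per group, filled where the adjusted p is under 0.05. Most sterol route points lie to the right of 0, with Msmo1 farthest at 2.71 and 3.11, while the first fatty acid enzymes, Acly to Fasn, lie at or left of 0.05.

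Hmgcs1 encodes the synthase that makes HMG-CoA, the precursor of mevalonate. Its signals (probe set 1433443_a_at) were 3919, 5378 and 4709 in the control minus arrays of sets A, B and C and 14586, 34150 and 15349 in the control plus arrays. In the knockouts they were 3782, 5312 and 4911 in minus and 12770, 27233 and 14719 in plus arrays. Every plus array lay above every minus array, and the plus arrays of set B stood well above the others. The change was 2.08 ± 0.20 in controls and 1.89 ± 0.20 in knockouts (standard errors from 3 arrays per group; limma adjusted p = 7.57e-05 and 0.000154). The next enzymes, the kinases of mevalonate, did not pass. Mvk was a dim gene with signals from 34.8 to 288 over the 12 arrays and changes of 0.78 ± 0.37 and -0.12 ± 0.37 (adjusted p = 0.148 and 0.851). Pmvk, with signals of 443 to 712, changed by -0.03 ± 0.20 and -0.08 ± 0.20. Mvd, the decarboxylase that makes isopentenyl diphosphate, had signals (1448663_s_at) of 118 to 212 in the 6 minus arrays and 213 to 432 in the 6 plus arrays, which do not overlap. It was called higher in controls (1.21 ± 0.24, adjusted p = 0.00432) and not in knockouts (0.62 ± 0.24, adjusted p = 0.0841). Its call in controls was lost without set A and without set C (adjusted p = 0.0675 and 0.0549).

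Idi1 interconverts the isoprenoid units. Its control signals (1451122_at) were 1898, 839 and 1235 in minus and 3626, 3737 and 4390 in plus arrays of sets A, B and C, and its knockout signals were 1334, 701 and 1266 in minus and 3444, 3142 and 3820 in plus arrays. The minus arrays of set B were the lowest, so that the difference was widest there. The changes were 1.61 ± 0.23 and 1.68 ± 0.23 (adjusted p = 0.000947 and 0.000871). Fdps joins the units into farnesyl diphosphate. Its signals (1423418_at) were 316, 232 and 841 in control minus and 1107, 1196 and 1669 in control plus arrays, and 397, 255 and 799 in knockout minus and 1125, 344 and 1689 in knockout plus arrays. The knockout plus array of set B, at 344, stood within the range of the minus arrays. Fdps was called in controls (1.63 ± 0.31, adjusted p = 0.00414) and missed the threshold in knockouts (0.96 ± 0.31, adjusted p = 0.0525). Without the naming set block the controls' call was lost too (adjusted p = 0.15).

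Fdft1 encodes squalene synthase, the first enzyme committed to sterols. Its control signals (1438322_x_at) were 562, 1318 and 592 in minus and 2561, 6741 and 3176 in plus arrays. Its knockout signals were 425, 1202 and 558 in minus and 1996, 4931 and 3063 in plus arrays. In each set the plus array was above the minus array by a similar factor, with set B brighter throughout. The changes were 2.27 ± 0.17 and 2.18 ± 0.17 (adjusted p = 2.33e-05 and 2.75e-05). This probe set carries the suffix _x_at, which the array's maker uses for probes that may match other sequences. The other Fdft1 probe set above the filter, 1448130_at, differed by 1.70 and 1.32. Sqle, the epoxidase that follows, had signals of 508 to 1851 in minus and 1179 to 4246 in plus arrays, which overlap. It was higher by 1.23 ± 0.24 and 1.20 ± 0.24 (adjusted p = 0.00432 and 0.00625), and lost both calls without the naming set block (adjusted p = 0.277 and 0.325), without set C (0.106 and 0.129) and with the beta-actin covariate (0.0574 and 0.108), and that in knockouts without set A (0.0716). Lss, which closes the ring to lanosterol, was called in controls (0.87 ± 0.25, adjusted p = 0.0276) and not in knockouts (0.68 ± 0.25, adjusted p = 0.0774). Its controls' call was lost without set A or C, and without any 1 of 5 of the 6 control arrays, all but the plus array of set A (adjusted p = 0.0675 to 0.119). The other Lss probe set above the filter, 1426913_at, differed by 0.69 in controls and 1.14 in knockouts. With means over its probe sets Lss was called in knockouts too (0.67, limma adjusted p = 0.0332).

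Cyp51 removes a methyl group from lanosterol. It gave signals (1450646_at) of 342, 299 and 282 in control minus and 1436, 2675 and 1973 in control plus arrays, and 299, 370 and 307 in knockout minus and 1283, 1660 and 1712 in knockout plus arrays. The 6 minus arrays lay close together and far below all plus arrays. The changes were 2.56 ± 0.22 and 2.14 ± 0.22 (adjusted p = 4.62e-05 and 0.00016). Msmo1, the oxidase that attacks the next pair of methyl groups, gave signals (1423078_a_at) of 412, 203 and 251 in control minus and 2896, 1295 and 2096 in control plus arrays. In the knockouts they were 298, 156 and 274 in minus and 2486, 1929 and 2455 in plus arrays. Its changes were the largest of the 32 genes, 2.71 ± 0.21 and 3.11 ± 0.21, a 6.54-fold and 8.65-fold difference on this scale (adjusted p = 2.33e-05 and 9.91e-06). Among all 10583 genes it ranked 12 and 6 by p. Its partner in demethylation, Nsdhl, changed far less. Nsdhl signals were 675 to 1126 in minus and 775 to 1447 in plus arrays, with changes of 0.55 ± 0.23 and 0.12 ± 0.23 (adjusted p = 0.103 and 0.746). Tm7sf2, a sterol reductase, had signals of 204 to 750 and changes of 0.26 ± 0.33 and -0.33 ± 0.33.

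Hsd17b7 encodes the ketoreductase of the same demethylation complex. Its control signals (1457248_x_at) were 388, 377 and 329 in minus and 649, 841 and 1563 in plus arrays, and its knockout signals were 196, 358 and 241 in minus and 569, 971 and 1279 in plus arrays. Plus and minus arrays do not overlap, and set C showed the widest gap. The changes were 1.31 ± 0.30 and 1.67 ± 0.30 (adjusted p = 0.00969 and 0.00365). Both calls were lost without set C (adjusted p = 0.173 and 0.0664), and that in controls also without the control minus or the control plus array of that set (0.062 and 0.0582) and without the naming set block (0.0764). The other Hsd17b7 probe sets differed by less, 0.77 and 0.73 for 1417871_at and 0.66 and 0.80 for 1448865_at. Sc5d, the desaturase near the end of the route, gave signals (1451457_at) of 502, 241 and 656 in control minus and 1320, 1749 and 2342 in control plus arrays, and 330, 259 and 584 in knockout minus and 1273, 1485 and 2322 in knockout plus arrays. Again no minus array reached a plus array. Its changes were 1.94 ± 0.25 and 2.05 ± 0.25 (adjusted p = 0.000478 and 0.000436).

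Ebp and Dhcr7 complete the late route. Ebp, the isomerase that moves the ring's double bond, had signals of 1264 to 4068 in minus and 471 to 3097 in plus arrays. It changed by -0.52 ± 0.26 in controls (adjusted p = 0.181) and was called lower in knockouts (-0.85 ± 0.26, adjusted p = 0.0419). The knockouts' call was lost in 15 of 27 alternatives, among them those without set A or C, those without any 1 of 8 arrays (the 3 control minus and 3 knockout minus arrays, the control plus array of set C and the knockout plus array of set B, adjusted p = 0.0555 to 0.13), and that with the beta-actin covariate, where the change was -0.27 (adjusted p = 0.666). Dhcr7, the last reductase, had signals of 506 to 1960, with naming set C below the other sets in every group, and changed by 0.05 ± 0.18 in controls and 0.05 ± 0.18 in knockouts. Its 95% intervals ran from -0.35 to 0.46 and from -0.36 to 0.45, so that a 2-fold change lay outside them.

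**Figure D2:**
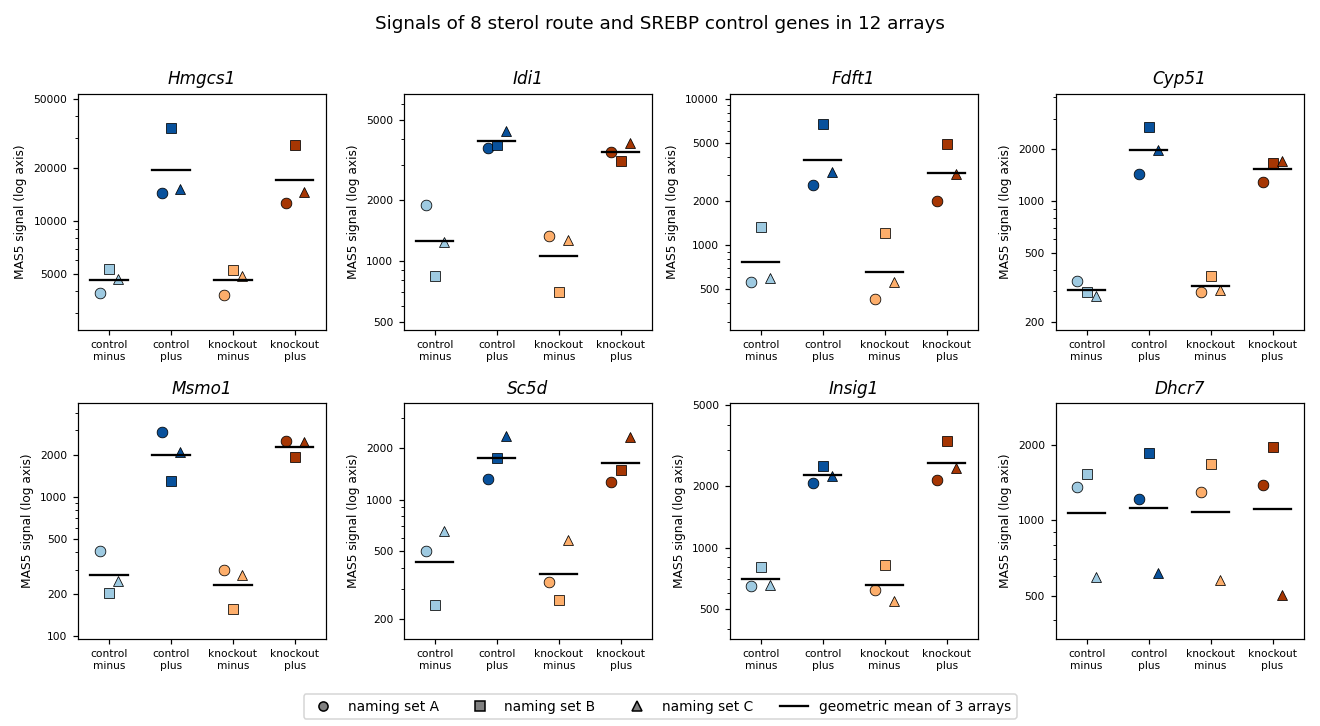
MAS5 signal (log axis) in each of the 12 arrays for 8 genes, by group, with marker shape for the naming set and a black line at the geometric mean of 3 arrays. For Hmgcs1, Idi1, Fdft1, Cyp51, Msmo1, Sc5d and Insig1 every plus array lies above every minus array, while the Dhcr7 signals sort by naming set, with set C lowest at 506 to 615.

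Insig1 and Insig2 encode the sterol sensors that retain SCAP. Insig1 signals (1454671_at) were 650, 800 and 656 in control minus and 2069, 2496 and 2250 in control plus arrays, and 622, 825 and 549 in knockout minus and 2133, 3333 and 2452 in knockout plus arrays. The arrays of a group lay close together, and the signs did not overlap. The changes were 1.65 ± 0.17 and 1.93 ± 0.17 (adjusted p = 0.000148 and 6.65e-05). Insig2 signals were 315 to 856 in minus and 644 to 1519 in plus arrays. Its change missed the threshold in controls (0.57 ± 0.21, adjusted p = 0.0706) and passed in knockouts (0.94 ± 0.21, adjusted p = 0.0103), a call that was lost without set A or C (0.0656 and 0.128) or without the knockout minus array of set B (0.051). Insig2 was also lost without the naming set block (0.282), when only the 6 knockout arrays were fitted (0.0748) and with the beta-actin covariate (0.0567).

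Srebf1 encodes SREBP-1. Its signals ran from 1050 to 3941 in minus and from 2104 to 5081 in plus arrays, with set B brightest in each group. The plus array was above its minus partner in all 6 pairs, and the changes were 0.67 ± 0.17 and 0.77 ± 0.17 (adjusted p = 0.0159 and 0.0101). In controls the call was lost without set A or C (0.138 and 0.27), without the control minus array of set A or C or the control plus array of set C (0.0512 to 0.0958) and with arrays centred on their medians (0.111). In knockouts it was lost without set A or C (0.0937 and 0.18) and without the knockout minus array of set C (0.0575). Without the naming set block Srebf1 was called in neither (0.501 and 0.445), and likewise with the beta-actin covariate (0.054 and 0.0624). Srebf2, which encodes SREBP-2, was uneven, with signals of 228 to 511 in minus and 109 to 1362 in plus arrays. Its changes of 0.78 ± 0.35 and 0.23 ± 0.35 did not pass (adjusted p = 0.127 and 0.686). The other Srebf2 probe set above the filter, 1452174_at, differed by 0.16 and -0.08. Scap, the escort, had signals of 2166 to 3356 in minus and 986 to 2348 in plus arrays. It was lower in the plus array in all 6 pairs, most in set B (-1.73 and -1.51), but its changes of -0.81 ± 0.30 and -0.75 ± 0.30 did not pass (adjusted p = 0.0733 and 0.102). With arrays centred on their medians Scap passed in controls (-1.01, adjusted p = 0.0338). The other Scap probe set above the filter, 1442885_at, differed the other way, by 0.09 and 0.27. Stard4, a carrier of cholesterol between membranes, had signals of 1725 to 3316 in minus and 3268 to 5928 in plus arrays. It was called higher in both genotypes, by 0.88 ± 0.18 and 0.77 ± 0.18 (adjusted p = 0.00523 and 0.0126). These calls were lost without set C (0.101 and 0.144) and without the naming set block (0.128 and 0.213), and that in knockouts also without set A (0.0795), without the knockout minus array of set B (0.059), when only the 6 knockout arrays were fitted (0.0582) and with the beta-actin covariate (0.0621).

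The fatty acid route opens with Acly, which frees acetyl-CoA from citrate, Acss2, which makes it from acetate, Acaca, the carboxylase, and Fasn, the synthase. None of these 4 was called in either genotype. Acly was bright in all 12 arrays (6144 to 12927) and changed by -0.10 ± 0.17 and 0.05 ± 0.17. On the probe set used, 1439459_x_at, the 95% intervals, from -0.47 to 0.28 and from -0.33 to 0.43, excluded a 2-fold change in either direction. Its suffix _x_at again marks probes that may match other sequences. The other Acly probe sets above the filter differed by 0.04 and -0.64 (1425326_at) and by -0.24 and -0.28 (1451666_at). Acaca signals were 783 to 1356 in minus and 517 to 1108 in plus arrays, with changes of -0.33 ± 0.19 and -0.50 ± 0.19 (adjusted p = 0.247 and 0.0922). Fasn signals were 1058 to 3941 in minus and 967 to 2468 in plus arrays, with changes of -0.20 ± 0.21 and -0.38 ± 0.21 (adjusted p = 0.536 and 0.236), and intervals from -0.66 to 0.26 and from -0.84 to 0.09. Acss2 signals were 1042 to 2626 in minus and 828 to 1729 in plus arrays, and its changes were -0.55 ± 0.28 and -0.58 ± 0.28. A dimmer Acss2 probe set, 1446542_at, differed the other way, by 1.52 and 1.60, so the direction of this gene depends on the probe set.

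The desaturases and elongases that modify the product behaved unevenly. Scd2, a stearoyl-CoA desaturase, had signals of 3997 to 7341 in minus and 6576 to 9961 in plus arrays and was called higher by 0.48 ± 0.14 and 0.56 ± 0.14 (adjusted p = 0.0346 and 0.0208). The control call was lost in 14 of 27 alternatives, among them those without any 1 of 8 arrays (the 6 control arrays and the knockout minus arrays of sets A and C, adjusted p = 0.0517 to 0.132). The knockout call was lost in 11, among them those without the plus or minus knockout array of set A or C (0.0603 to 0.108), and both calls were lost with the beta-actin covariate (0.0584 and 0.0655). A second Scd2 probe set, 1415823_at, differed by 0.78 in controls and by -0.47 in knockouts. Scd1, its close relative and the main desaturase of liver, lay below the level filter, with signals of 8.35 to 57.1 in the 6 minus arrays and 65.2 to 338 in the 6 plus arrays. These ranges do not overlap, although the minus signals are below the array medians. In a fit of all 18194 genes without the filter, Scd1 was higher by 1.88 ± 0.39 in controls and 1.46 ± 0.39 in knockouts (adjusted p = 0.0103 and 0.0403).

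Fads1 and Fads2 encode the desaturases of polyunsaturated fatty acids. Fads1 signals were 735 to 2925 in minus and 1312 to 4848 in plus arrays, with changes of 0.71 ± 0.26 in controls (adjusted p = 0.0717) and 1.04 ± 0.26 in knockouts (adjusted p = 0.0185). The knockout call was lost without set A or C (0.0687 and 0.193), without the knockout minus array of set B or C or the knockout plus array of set C (0.0806 to 0.0826) and without the block (0.329). With the beta-actin covariate Fads1 was called in controls too (1.42, adjusted p = 0.00714), and likewise with means over its probe sets (1.14, adjusted p = 0.00403). The other Fads1 probe set above the filter, 1440444_at, differed by more, 1.57 in controls and 1.17 in knockouts. Its signals, 230 to 297 in minus and 543 to 852 in plus arrays, did not overlap. Fads2 signals on the probe set used, 1419031_at, split by naming set, at 44.4 to 174 in set B and 721 to 1892 in sets A and C. It was higher in controls (0.93 ± 0.25, adjusted p = 0.0193) and at 0.44 ± 0.25 in knockouts (adjusted p = 0.233). The control call was lost when any of the sets was left out (0.0516 to 0.155), without the control minus array of set B or C or the control plus array of set B (0.0803 to 0.0903) and without the block (0.786). The other Fads2 probe sets above the filter, 1443838_x_at and 1449325_at, did not split in this way, with 67.8 to 215 and 99.9 to 212 in set B. They differed by 0.58 and 0.47 in controls and by 0.57 and 0.61 in knockouts. Elovl6, which elongates the product of Fasn, was the gene called lower in controls, at 964 to 1475 in minus and 569 to 947 in plus arrays (-0.62 ± 0.19, adjusted p = 0.0359). In knockouts it changed by -0.09 ± 0.19 (adjusted p = 0.779). The control call was lost in 16 of 27 alternatives, among them those without any 1 of 9 arrays (adjusted p = 0.0542 to 0.11): the 6 control arrays, the knockout minus arrays of sets A and C and the knockout plus array of set A. It was also lost with the beta-actin covariate (0.0726). The Elovl6 probe set 1442656_at differed by 0.52 in controls and 0.14 in knockouts. Its probe set 1417403_at differed by -0.61 in controls and -0.62 in knockouts, so the gap between genotypes depends on the probe set. Elovl5, the elongase of polyunsaturated acids, was bright throughout (5110 to 9747) and changed by -0.08 ± 0.17 and 0.20 ± 0.17.

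**Figure D3:**
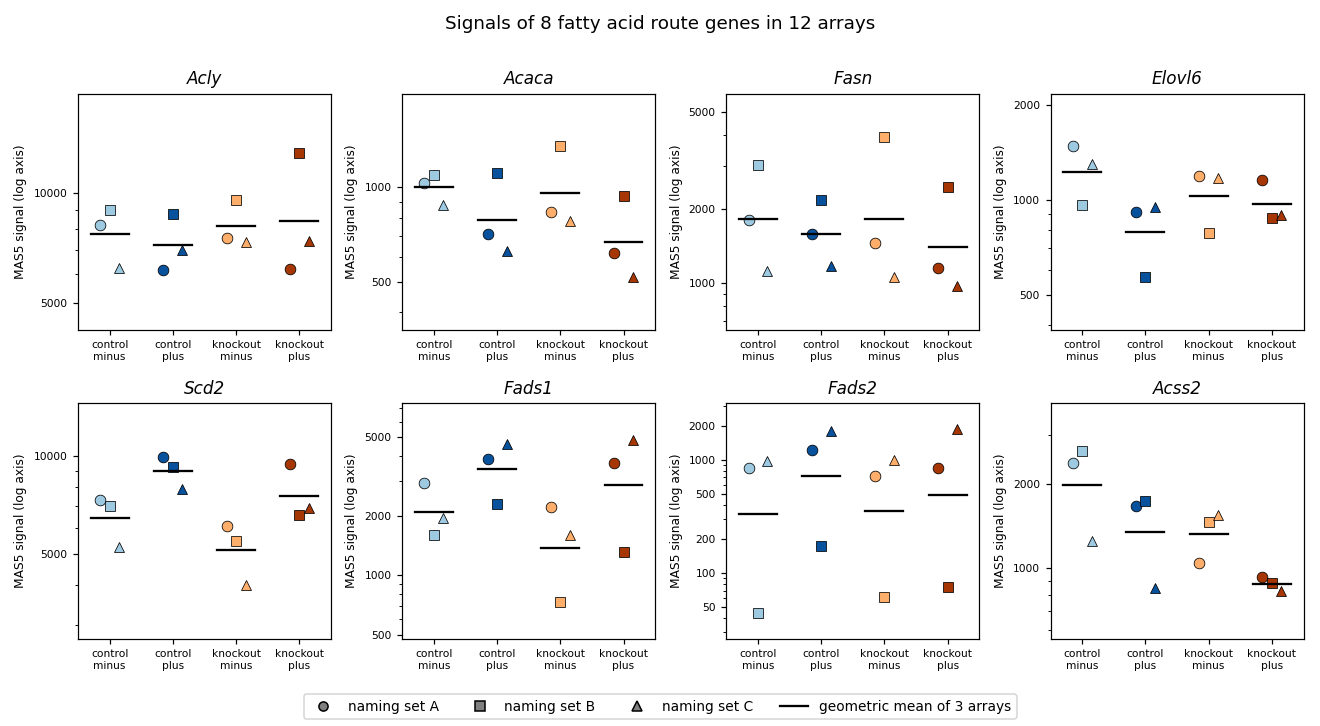
MAS5 signal (log axis) in each of the 12 arrays for 8 fatty acid route genes, by group, with marker shape for the naming set and a black line at the geometric mean of 3 arrays. Over all 12 arrays plus and minus overlap for each of the 8 genes. Within controls Elovl6 separates with plus lower, within knockouts Acss2 does, and Scd2 separates with plus higher in each genotype. For Fads2, set B stands at 44.4 to 174.

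The separation of the signals by sign differed in count between the routes. In 9 of 32 genes all 6 plus arrays lay above all 6 minus arrays, beside 5.73% of all genes, and in 0 of 32 did they lie below, beside 5.22%. These 9 were Hmgcs1, Mvd, Idi1, Fdft1, Cyp51, Msmo1, Hsd17b7 and Sc5d of the sterol route (8 of 17) and Insig1 of SREBP control (1 of 6), with 0 of 9 in the fatty acid route. The counts use the brightest probe set of each gene, and the dimmer Fads1 probe set 1440444_at did separate. Some dimmer probe sets of the 9 genes, above the filter, overlapped. They were Hmgcs1 1433446_at, Mvd 1417303_at, Fdft1 1448130_at and Hsd17b7 1448865_at and 1417871_at. Their signals in the knockout plus array of set B were 393, 58.1, 258, 120 and 7.39. The counts therefore depend on the probe set in both directions. Within single pairs, 21 of 32 genes were higher in the plus array in all 3 sets in controls, beside 27.1% of all genes, and 17 of 32 in knockouts, beside 24.7%. In each genotype 5 of 32 were lower in all 3 sets, beside 30.6% of all genes in controls and 29.1% in knockouts. The median of the sterol route was 0.92, 1.18 and 1.58 in the control pairs of sets A, B and C and 1.35, 0.62 and 1.05 in the knockout pairs. The median of the fatty acid route was -0.19, -0.04 and 0.06 in the control pairs and -0.04, 0.21 and 0.01 in the knockout pairs. No difference between the routes was tested.

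**Figure D4:**
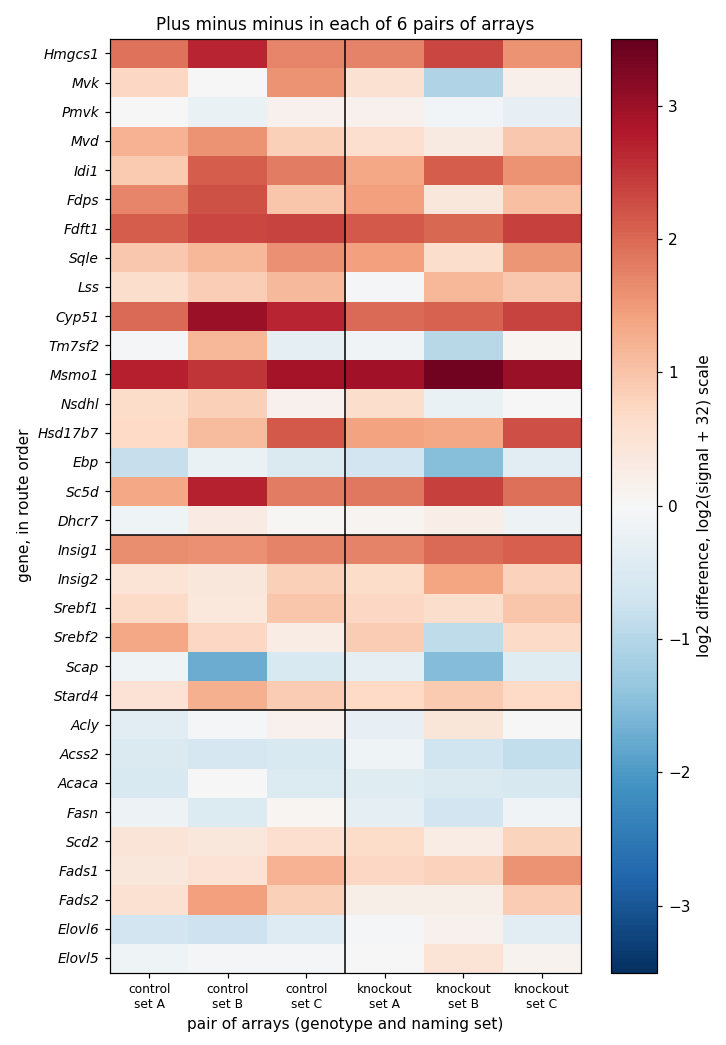
Difference between the plus and the minus array of each naming set and genotype (6 columns) for the 32 genes in route order (rows), as log2(signal + 32), red where plus is higher and blue where it is lower. Black lines divide the genotypes and the 3 groups of genes. Hmgcs1, Idi1, Fdft1, Cyp51, Msmo1, Sc5d and Insig1 are red in all 6 columns, and the block from Acly to Fasn is pale or blue.

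Knockout arrays were then compared with control arrays of the same sign, which asks whether the genes differ with the loss of Stat5. In minus arrays 0 of 32 genes were called, beside 0.0189% of all genes (Stat5a and Stat5b, both lower). The changes ranged from -0.59 to 0.42 with a median of -0.10, and 3 genes had an unadjusted p under 0.05, Srebf1 (-0.40 ± 0.17), Scd2 (-0.33 ± 0.14) and Fads1 (-0.59 ± 0.26), each lower in the knockout in 3 of 3 sets (limma adjusted p = 1.0 for each). On other probe sets above the filter, Fads1 differed by -0.03 (1440444_at) and Scd2 by -0.01 (1415823_at). In plus arrays 0 of 32 were called, beside 0.0189% of all genes, again Stat5a and Stat5b. The changes ranged from -0.78 to 0.35 with a median of -0.21, against -0.04 for all genes. Here 2 genes had an unadjusted p under 0.05, Nsdhl (-0.56 ± 0.23, lower in 3 of 3 sets) and Srebf2 (-0.78 ± 0.35, lower in 2 of 3 sets), with an adjusted p = 0.507 each. The 95% intervals lay within a 2-fold change either way for 28 of 32 genes in minus arrays and 25 of 32 in plus arrays. For Hmgcs1 they ran from -0.43 to 0.42 and from -0.62 to 0.23, for Msmo1 from -0.67 to 0.25 and from -0.27 to 0.65, and for Insig1 from -0.47 to 0.29 and from -0.19 to 0.58. Differences smaller than these bounds were not excluded. Of all genes, 250 in minus and 1038 in plus arrays had an unadjusted p under 0.05.

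**Figure D5:**
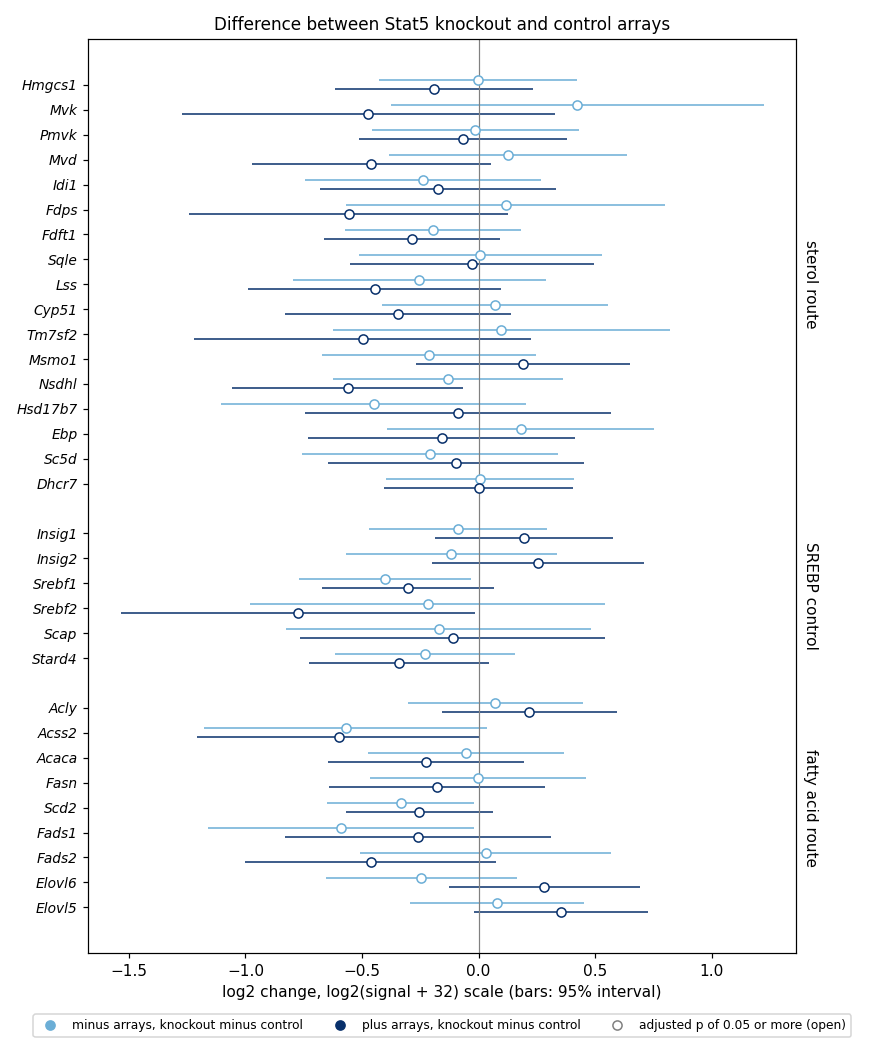
Difference between knockout and control arrays for the 32 genes tested, in route order, on the log2(signal + 32) scale (horizontal axis), in minus (light blue) and plus arrays (dark blue). Points are limma estimates with 95% intervals from 3 arrays per group, and all are open because no adjusted p is under 0.05. The points lie between -0.78 and 0.42, and the widest intervals belong to Mvk and Srebf2.

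Whether the plus to minus difference itself differed between the genotypes was tested by the interaction of both. It called 0 of 32 genes and 0% of all genes, with 0 of 32 and 223 of all genes at an unadjusted p under 0.05. The interactions ranged from -0.90 (Mvk) to 0.53 (Elovl6, unadjusted p = 0.0696, adjusted p = 0.954, the smallest p of the 32). Mvd, Fdps, Lss, Fads2 and Elovl6, called in controls and not in knockouts, and Insig2, Fads1 and Ebp, called in knockouts and not in controls, are therefore not shown to differ between genotypes. Their interactions, knockout minus control, were -0.59 ± 0.33 for Mvd, -0.67 ± 0.44 for Fdps, -0.19 ± 0.35 for Lss, -0.49 ± 0.35 for Fads2 and 0.53 ± 0.26 for Elovl6. For Insig2, Fads1 and Ebp they were 0.37 ± 0.29, 0.33 ± 0.37 and -0.34 ± 0.37. On the other Elovl6 probe sets above the filter the interaction was -0.01 (1417403_at) and -0.38 (1442656_at). The intervals of 18 of 32 genes lay within a 2-fold difference, among them Hmgcs1 (-0.79 to 0.41), Fdft1 (-0.62 to 0.45) and Insig1 (-0.26 to 0.82), while those of Cyp51 (-1.10 to 0.27) and Msmo1 (-0.25 to 1.05) reached past it.

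Neighbouring genes of lipid handling were taken from a list of 37, of which 28 were found and 25 tested. In controls 6 were higher and 2 lower in plus arrays (8 of 25, beside 22.1% of all genes called), and in knockouts 5 were higher and 2 lower (7 of 25, beside 18.8%). These shares are not far from those of all genes. Among sterol genes outside the core route, Npc1, which exports cholesterol from lysosomes, was higher by 1.39 ± 0.23 and 0.83 ± 0.23 (adjusted p = 0.00188 and 0.0268). Mylip, whose product marks the LDL receptor for breakdown, was higher by 1.10 ± 0.22 and 1.16 ± 0.22 (adjusted p = 0.00449 and 0.00423). Ggps1, which makes geranylgeranyl diphosphate, was called higher in controls (0.69 ± 0.22) and differed by 0.67 in knockouts. Lipa, the lysosomal lipase, was called higher in knockouts (1.09 ± 0.23) and differed by 0.47 in controls. Tmem97, a sterol-responsive membrane protein, was called lower in controls (-1.61 ± 0.35, adjusted p = 0.00785) and differed by -0.64 in knockouts. Of 5 tested genes that process or degrade the SREBP and INSIG proteins, 0 were called in either genotype. Around fatty acid synthesis, Lpin1, a phosphatidate phosphatase, was higher by 0.86 ± 0.20 and 0.87 ± 0.20 and Acsl5, an acyl-CoA synthetase, was lower by -1.34 ± 0.24 and -1.13 ± 0.24 in both genotypes. Acsl4 (0.91 ± 0.27) and the elongase Elovl7 (1.44 ± 0.35) were called higher in controls and differed by 0.74 and 0.26 in knockouts. In knockouts Me1, the malic enzyme that supplies NADPH, was called higher (1.30 ± 0.33) and Slc25a1, the mitochondrial citrate carrier, lower (-1.58 ± 0.45, adjusted p = 0.0314). Me1 and Slc25a1 differed by 0.91 and -1.01 in controls. The knockout plus signal of Slc25a1 was 140 in set B, beside 1509 and 1338 in sets A and C, so the size of its change leans on that array. Between knockout and control arrays 0 of 25 were called in either sign. The interaction called 0 of 25 too, so genes called in only 1 genotype are not shown to differ between genotypes.

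Most genes had further probe sets. Of the 20 other probe sets above the filter that belong to genes called in controls, 19 had the same sign as the one used, and in knockouts 16 of 17 did. The exceptions were the Elovl6 and Scd2 probe sets given above. Over all 32 genes, the other probe sets shared the sign in 25 of 30 cases in controls and 22 of 30 in knockouts.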

How the data were processed

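RNA was measured on 12 one-colour Affymetrix arrays. The authors deposited linear intensity values, 1 per probe set, from MAS5 per the submitters' processing notes. Version, scaling target and detection calls are not given in the sources used here. The 1 table held 45101 probe sets. The supplied probe table paired 34958 with 1 symbol and 932 with several, and 9211 were not listed. Precision is limited by how few arrays there are, since arrays have no read depth.

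Values were taken as log2(signal + 32), with the brightest probe set per gene. The level filter required a mean of at least 6.76 (the median over all probe sets), and 10583 genes passed. Fold changes of dim genes are understated on this scale. One limma fit (3.58.1, R 4.3.3, trend) held 4 groups and the naming set, with 6 residual and 5.78 prior degrees of freedom. Calls are two-sided at a Benjamini-Hochberg adjusted p under 0.05. Errors are standard errors.

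The naming set pairs the arrays by the form of their titles. Deviations from group means correlated across genes at 0.41 to 0.77 for arrays of 1 set (18 pairs), and between arrays that share neither set nor group at -0.64 to 0.28 (36 pairs), so the block was kept. On simulated data with 100 changes of each size among 10583 genes, the fit called 52 of the 2-fold and 98 of the 4-fold changes between plus and minus control arrays, with 10 false calls, and 21 and 90 in the interaction, with 6.

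The genes, the lists and the 27 alternatives were chosen with earlier results of these data known. Signals in every array are given for up to 8 called genes per contrast with the smallest p. Genes of the related list are named where they passed a test. Promoter windows and gene names are from RefSeq (GRCm38.p6), and no protein sequence was used here.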

Additional observations from a re-analysis of the deposited data

Results flagged for a closer look

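Other genes also had genotype differences of opposite sign in minus and plus arrays, but Mvk, the mevalonate kinase, was the 1 gene of the 32 in which all 3 naming sets pointed one way in minus arrays and all 3 the other way in plus arrays. Knockout minus control was 0.42 ± 0.37 in minus arrays, higher in 3 of 3 naming sets, and -0.47 ± 0.37 in plus arrays, lower in 3 of 3 sets (SE, n = 3 arrays per group). The test of the difference itself, the interaction, gave -0.90 ± 0.52 and did not pass (limma adjusted p = 0.954, unadjusted p = 0.11). In the minus arrays the difference was 1.09 in set C, 0.16 in set B and 0.01 in set A, and the signals of this gene were dim, from 34.8 to 288.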

How the results depend on the processing

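Calls rested most on the naming set. Of the 17 genes called in controls, 8 were called with no replicate block, 11 without set A and 8 without set C, and leaving out 1 array gave 11 to 22. Of the 15 called in knockouts, 8 were called with no replicate block, 8 without set A, 7 without set C, 9 when the 2 groups were fitted alone and 9 with the beta-actin covariate, and leaving out 1 array gave 11 to 16. These numbers are counts of calls under each setting, and the share of all genes called moved too, as given above. Fewer arrays enter the fits without a set and of 2 groups alone. Leaving out set B also drops 1 array of each group. Calls were then gained, with 29% of all genes called in controls and 25% in knockouts. The cause of the losses was not tested. The other settings, with a constant of 1 or 100, median centring, quantile normalization, no level filter or one at 8, means over probe sets, array weights, and the array of conflicting labels as a control, gave counts within 1.5 times of these. Counts for the genotype comparisons and the interaction stayed at 0 under every alternative run. The calls of 7 genes held throughout in both genotypes, and no call reversed. Single-gene results kept their side of the threshold in 4109 cases, lost it in 125 and gained it in 49. The largest standard errors of a plus to minus change were those of Mvk (0.37), Srebf2 (0.35) and Tm7sf2 (0.33).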
